A study of Mus musculus with 8 samples.

Results

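Iron uptake, storage and export genes were followed in mouse primary oligodendrocyte precursor cells (OPCs), the progenitors that mature into the myelin-forming oligodendrocytes (OLs). They are 10 of the 23427 gene entries of the deposited table, chosen by symbol: *Trf*, *Tfrc*, *Slc11a2* and *Steap3* for uptake, *Fth1* and *Ftl1* for storage, *Slc40a1* and *Heph* for export, and *Aco1* and *Ireb2*, which encode the iron regulatory proteins. Their values are FPKM, the number of fragments divided by transcript length and by the depth of the library, which puts genes of different length on 1 scale. The FPKM of a library summed to 359540 to 406515, highest on Day 0, so calls between days are also given under another scaling where it changes them. *Trf* and both ferritin genes were called higher on Day 3 than on Day 0, but these calls were lost when either Day 0 library was left out. The changes of the transferrin receptor and of both regulators did not pass the test, and the export genes were at or near 0 throughout.

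The study profiled wild-type C57BL/6J OPCs at 4 times of differentiation, Day 0 (before it began) to Day 3, with 2 replicates per day and 8 libraries in all. The cells came from pooled cortices of 3 pups at postnatal day 7 and had been captured on dishes coated with an antibody against PDGFRα, after passes over lectin-coated dishes meant to take out microglia and endothelial cells. Differentiation began when PDGF-AA was withdrawn and the thyroid hormone T3 was added. The growth medium in the methods contained apo-transferrin, the iron-free form of the protein that *Trf* encodes, whereas the labels name a medium with serum, and both are sources of transferrin protein that an mRNA library does not see. Every group thus shared strain and genotype, and Day 0 differed from the later days in medium as well as in time. The methods call the replicates independent, without saying whether equal numbers on different days mark a shared cell isolation.

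Cells take up most of their iron as transferrin, which binds the transferrin receptor and is carried into endosomes, where the iron is reduced and moved into the cytosol. Iron that is not used is held in the ferritin shell or leaves through ferroportin. The iron regulatory proteins set this balance after transcription: in cells short of iron they bind hairpins named iron-responsive elements, which stops translation when the hairpin lies in a 5′UTR and protects the mRNA from decay when it lies in the 3′UTR of *Tfrc*. In the brain OLs are the cells richest in iron and are a main source of transferrin mRNA, and several enzymes that make myelin lipids need iron.

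The hairpin loops are shown first, since the iron regulatory proteins are known to act through such hairpins. *Slc11a2* also has a transcript known to carry one, which the strict rule used here did not find. Loops were sought in the UTRs of GENCODE M21 transcripts (GRCm38, the same assembly as the mm10 of the submitters' processing notes) as a C, 5 bases, the loop CAGTGN and 5 bases that pair with the 5 before it, on the sense strand. In *Tfrc* the rule found 4 loops, all in exon 19 and in the 3′UTR, on the plus strand at chr16:32631219-32631248, chr16:32631598-32631627, chr16:32631663-32631692 and chr16:32631710-32631739. In capitals is the loop:
Tfrc loop at 32631219: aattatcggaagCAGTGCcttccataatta
Tfrc loop at 32631598: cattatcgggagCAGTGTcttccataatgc
Tfrc loop at 32631663: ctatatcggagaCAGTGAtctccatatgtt
Tfrc loop at 32631710: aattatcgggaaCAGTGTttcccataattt
In *Fth1*, *Ftl1* and *Slc40a1* a single loop each was found, in the 5′UTR, at chr19:9982732-9982761 on the plus strand in exon 2, chr7:45459778-45459807 on the minus strand in exon 1 and chr1:45925464-45925493 on the minus strand in exon 1:
Fth1 loop: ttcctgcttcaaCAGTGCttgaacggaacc
Ftl1 loop: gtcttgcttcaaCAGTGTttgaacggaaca
Slc40a1 loop: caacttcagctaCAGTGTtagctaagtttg
The same rule found a loop in the 5′UTR of 31 of 20899 genes (0.148%) and in the 3′UTR of 129 of 21022 (0.614%). A match to the rule is not a measured binding site, and in *Slc11a2* and the other genes here no window met the whole rule of letters and pairing. The loop belongs to 4 of 5 coding transcripts of *Fth1*, 1 of 2 of *Ftl1* and 1 of 4 of *Slc40a1*, and those of *Tfrc* to 1 of 3, and the gene-level FPKM used here do not tell transcripts apart.

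The labels were checked with marker genes. From Day 0 to Day 3 all 4 OPC markers fell (*Pdgfra*, *Cspg4*, *Ptprz1*, *Gpr17*) and all 5 OL markers rose (*Mbp*, *Mag*, *Mog*, *Mobp*, *Cnp*) by limma with Benjamini-Hochberg adjustment over 12208 genes. *Gpr17* first rose, from 232 and 279 FPKM on Day 0 to 454 and 449 on Day 1, and was at 185 and 116 on Day 3. It made up much of the OPC sum on Day 1, which therefore does not track the other OPC markers closely. The 2 replicates differed in astrocyte markers: all 6 (*Gfap*, *Aqp4*, *Aldh1l1*, *Slc1a3*, *Gja1*, *Aldoc*) were higher in replicate 2 on all 4 days, with a summed level of 107 to 160 FPKM in the libraries of replicate 1 and 337 to 918 FPKM in those of replicate 2. Of the microglial markers *Aif1*, *Cx3cr1*, *Csf1r* and *Tmem119* were listed at 0 in every library and the list summed to at most 18.3 FPKM. The endothelial list summed to at most 1.32 FPKM (*Cldn5* and *Cdh5* at 0) and the erythroid list to at most 0.422 FPKM with the globins at 0. Of the 5 neuronal markers 3 were tested, with a median log2 fold change of -0.50. *Tubb3* rose from a mean of 40.5 to 172 FPKM, *Snap25* went from 5.31 to 0.739 FPKM (adjusted p = 0.0618 by limma) and *Syt1* from 1.89 to 1.04 FPKM (0.275), and *Rbfox3* was at or under 0.305 FPKM in every library. The smallest steps in low FPKM values put the depth at 960000 to 1530000 fragments per library.

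**Figure D1:**
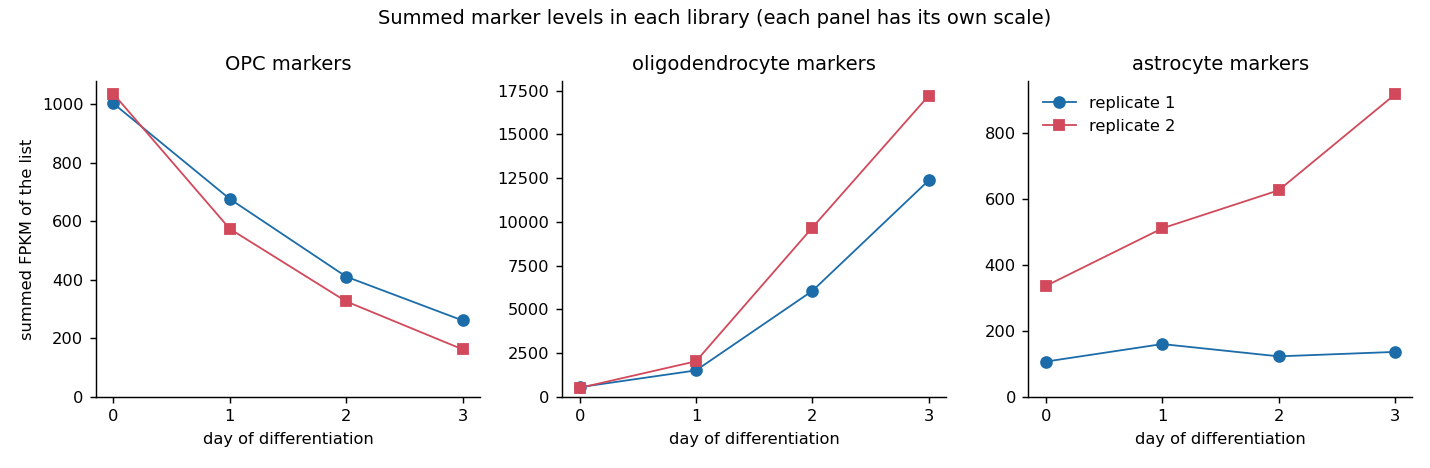
Summed FPKM of the OPC, OL and astrocyte marker lists (y axis) by day of differentiation (x axis), each point a library, with circles for replicate 1 and squares for replicate 2. The OPC sum, which includes *Gpr17* with its peak on Day 1, fell from 1002 and 1035 FPKM on Day 0 to 261 and 162 on Day 3. The astrocyte sum in replicate 2 was above that in replicate 1 on every day.

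Of the 10 genes, 8 reached an FPKM of 1 or more in 2 or more libraries and were tested. From Day 0 to Day 3, 3 of the 8 were called higher (*Trf*, *Fth1* and *Ftl1*), where 12% of all tested genes were called higher, and 0 were called lower, where 26.3% of all were. All 3 calls were lost when either Day 0 library was left out, and those of *Trf* and *Fth1* without Day 3 replicate 2. Each of these fits leaves 1 library in a group, and fewer genes of the whole table were called in them as well. With median ratio scaling the calls over all genes were split as 2135 higher and 2047 lower, against 1460 and 3207 in the FPKM as deposited. The median log2 fold change of the 8 genes was 0.505, beside -0.31 over all tested genes, so that each change below is also given relative to that median where it was called. The fit gave all 8 genes a change above 0, and for *Aco1* and *Ireb2* the sign turned when 1 library was left out.

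**Figure D2:**
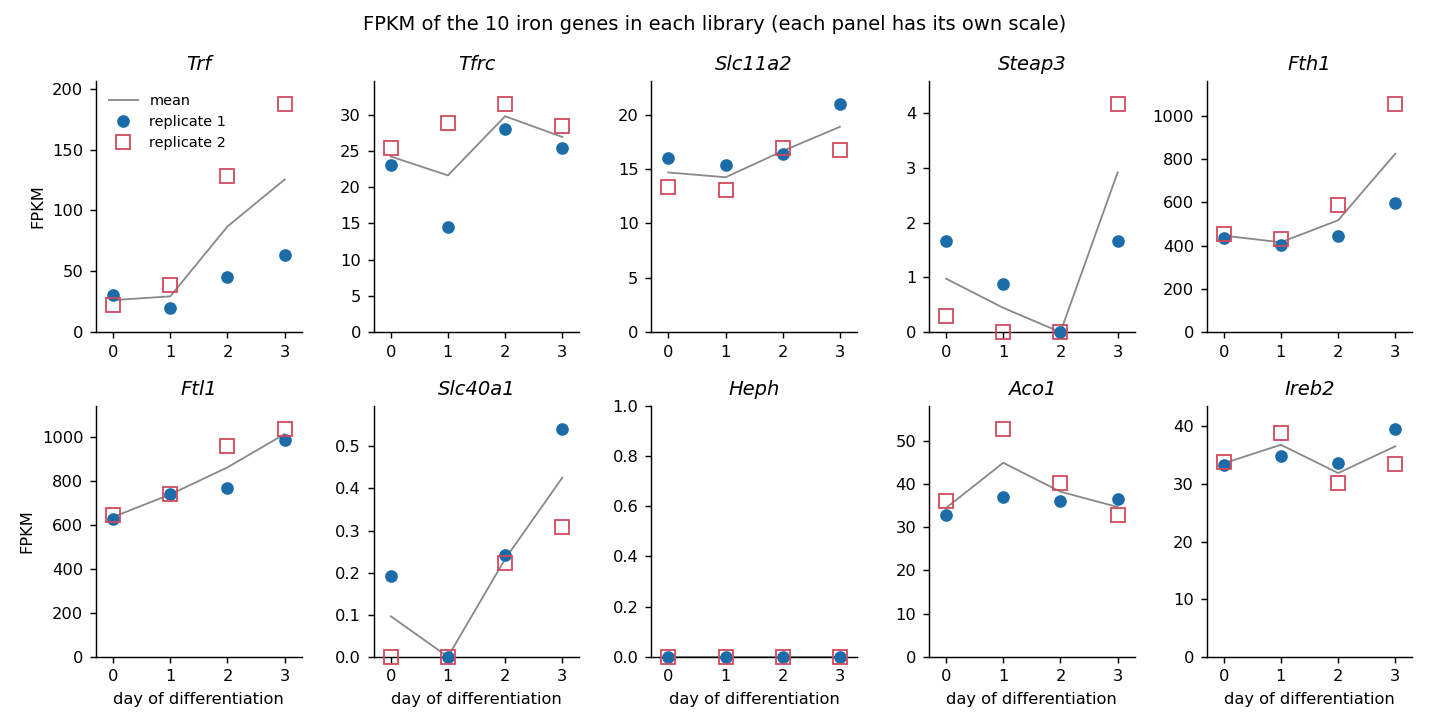
FPKM of the 10 iron genes (y axis, a scale for each panel) by day of differentiation (x axis), with filled circles for replicate 1, open squares for replicate 2 and a line through the means. *Trf* spans 19.9 to 188 FPKM, both ferritin genes are at 402 FPKM or more in every library, and *Heph* lies at 0 in all 8.

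*Trf*, which encodes the iron carrier transferrin, had the largest fitted change of the 8 from Day 0 to Day 3. The gene is on the minus strand at chr9:103204001-103230444. Its level at Day 0 was 30.2 and 22.4 FPKM in replicates 1 and 2, and at Day 1 19.9 and 38.9 FPKM. The Day 2 libraries held 45.4 and 128 FPKM and those of Day 3 63.3 and 188 FPKM. Both Day 3 libraries were above both Day 0 libraries, both Day 2 libraries were above both Day 1 libraries, and on Day 2 and Day 3 replicate 2 was the higher by a ratio of 2.82 and 2.96. The mean went from 26.3 ± 5.53 (SD, n = 2) to 125 ± 87.9 FPKM (SD, n = 2), a ratio of means of 4.77, with ratios of 2.10 within replicate 1 and 8.39 within replicate 2.

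On the log2(FPKM + 1) scale *Trf* rose by 2.03 ± 0.60 (SE, 95% interval 0.66 to 3.39) from Day 0 to Day 3, with an adjusted p of 0.0280 by limma, or by 2.34 relative to the median of all genes. The call was lost without Day 0 replicate 1 (adjusted p = 0.0878), without Day 0 replicate 2 (0.146) and without Day 3 replicate 2, which left a log2 fold change of 1.25 (adjusted p = 0.172 by limma). It was also lost with no filter (adjusted p = 0.0526) and with eBayes without a trend (adjusted p = 0.0537 by limma). With a term for replicate number in the fit the call stood (adjusted p = 0.0048 by limma). Of the steps between days, that from Day 1 to Day 2 was the largest, at 1.42 ± 0.60 (SE) with an unadjusted p of 0.0430 and an adjusted p of 0.213 by limma. The summed astrocyte markers stood apart in the same libraries, at 123 and 627 FPKM on Day 2 and 136 and 918 FPKM on Day 3, and the summed OL markers at 6052 and 9672 FPKM and 12370 and 17210 FPKM. Their part in the replicate difference of *Trf* was not tested, and in bulk samples fewer cells of a type and less RNA per cell cannot be told apart. Within replicate 1 the astrocyte sum was 107 FPKM on Day 0 and 136 FPKM on Day 3, and *Trf* went from 30.2 to 63.3 FPKM. The markers in that sum did not move together. *Gfap* went from 14.7 to 45.5 FPKM, *Aqp4* from 0.898 to 3.97, *Aldoc* from 57.5 to 68.9 and *Gja1* from 0 to 0.295. *Slc1a3* went from 32.5 to 17.0 FPKM and *Aldh1l1* from 1.27 to 0.595. The part of astrocytes in the change of *Trf* within replicate 1 was not tested.

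Of the 75-base windows of the *Trf* transcripts, 56.0% also occur in another annotated gene, nearly all in Gm20425, a transcript unit on the same strand that has no entry in the table. How the counting treated reads in those windows is not given in the sources used here.

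*Tfrc*, the receptor that takes up transferrin, was not called in any comparison of days. Its locus is on the plus strand at chr16:32608920-32632794. Its level was 23.1 and 25.4 FPKM at Day 0, 14.4 and 28.8 at Day 1, 28.1 and 31.5 at Day 2 and 25.4 and 28.5 at Day 3. The days overlapped in each comparison made, the lowest library was Day 1 replicate 1, and replicate 2 was the higher on 4 of 4 days. Its log2 fold change by Day 3 was 0.15 ± 0.28 (SE, 95% interval -0.50 to 0.79), with an adjusted p of 0.708 by limma. An increase of up to 0.79 or a decrease of down to -0.50 on the log2 scale thus stayed within the interval.

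Ligand and receptor were also compared within each library, where depth cancels. The ratio of *Trf* to *Tfrc* FPKM was 1.31 and 0.881 at Day 0, 1.38 and 1.35 at Day 1, 1.62 and 4.07 at Day 2 and 2.50 and 6.59 at Day 3. Both Day 3 libraries were above all libraries of Day 0 and Day 1. The log2 ratio of FPKM + 1 had a slope of 0.66 per day, with p = 0.0127 in a two-sided exact permutation test over 2520 arrangements of the 8 libraries and 0.0508 after adjustment over the 4 ratios examined. With the replicate block, in which libraries changed places only within their replicate number, p was 0.00347 in the exact test, the smallest that its 576 arrangements can give, and 0.0139 adjusted.

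**Figure D3:**
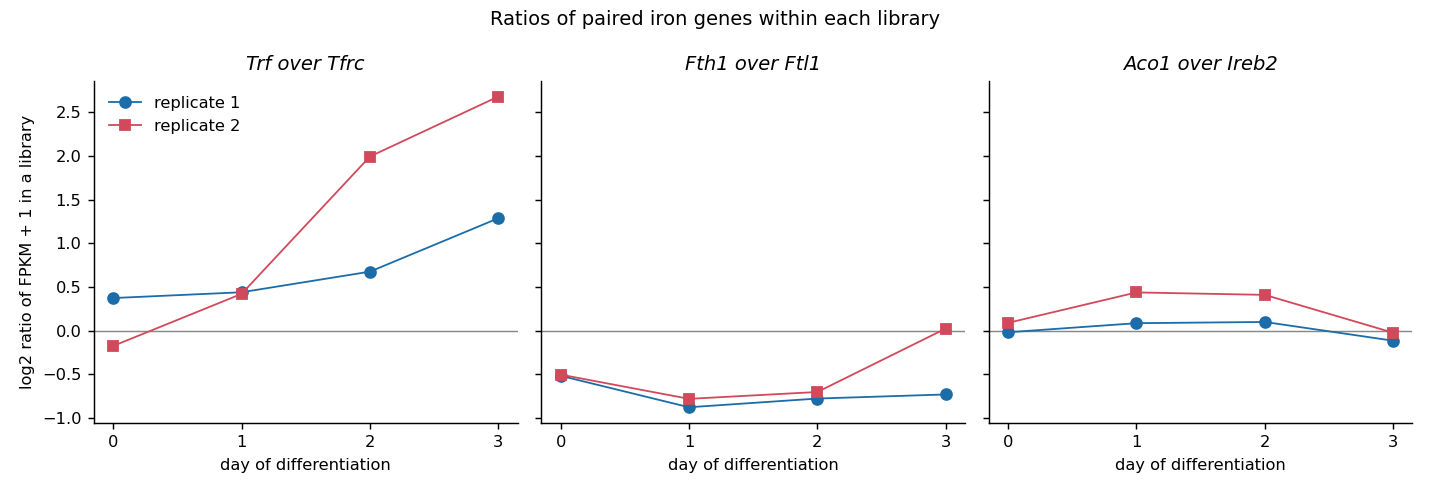
Log2 ratio of FPKM + 1 of *Trf* to *Tfrc*, *Fth1* to *Ftl1* and *Aco1* to *Ireb2* (y axis) in each library by day of differentiation (x axis), with circles for replicate 1 and squares for replicate 2. The *Trf* to *Tfrc* ratio reached 1.29 and 2.68 on Day 3, the ferritin ratio stayed below 0 in all libraries but Day 3 replicate 2, and the ratio of the regulators stayed between -0.11 and 0.44.

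Of the genes whose log2(FPKM + 1) ran most like that of *Trf* over the 8 libraries, among 6482 genes of mean FPKM of at least 10, the first were *Soga3* (Pearson r = 0.983), *Apbb2* (0.966), *Csrp1* (0.963) and *Ippk* (0.962). *Csrp1* went from 49.0 and 45.6 FPKM on Day 0 to 138 and 369 FPKM on Day 3, with the same order of the replicates as *Trf*. For *Tfrc* they were *Tsg101* (0.914), *2310011J03Rik* (0.87), *Zyx* (0.866), *Nupl1* (0.862) and *Rer1* (0.853), each lowest in Day 1 replicate 1, as *Tfrc* was. The 8 points of each correlation are the libraries themselves, with the 4 days and the replicate differences in them, so the values are given as a description.

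*Slc11a2* encodes DMT1, the transporter that moves reduced iron out of the endosome. It is on the minus strand at chr15:100387898-100425072, and 402 of its exonic bases overlap Gm5475 on the other strand. Its level was 16.0 and 13.4 FPKM at Day 0, 15.4 and 13.1 at Day 1, 16.4 and 17.0 at Day 2 and 21.0 and 16.8 at Day 3. Both Day 3 libraries were above both Day 0 libraries, by a ratio of 1.31 within replicate 1 and 1.26 within replicate 2. The log2 fold change of 0.34 ± 0.20 (SE, 95% interval -0.11 to 0.79) had an adjusted p of 0.205 by limma. It was called with median ratio scaling (0.64, adjusted p = 0.0310) and with quantile normalization (0.61, adjusted p = 0.0347 by limma).

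*Steap3*, the reductase that turns ferric into ferrous iron in the endosome, was close to the limit of detection. It is on the minus strand at chr1:120190757-120272705. Its level was 1.66 and 0.296 FPKM on Day 0, 0.888 and 0 on Day 1, 0 in both libraries of Day 2 and 1.66 and 4.17 on Day 3. These values correspond to about 7, 1, 3, 0, 0, 0, 5 and 11 fragments in the order given. Both libraries of Day 3 were above both of Day 2, while Day 3 replicate 1 and Day 0 replicate 1 were alike. By Day 3 the log2 fold change from Day 0 was 1.00 ± 0.52 (SE, 95% interval -0.19 to 2.19) with an adjusted p of 0.161 by limma, and from Day 2, where it is listed at 0, to Day 3 the unadjusted p was 0.00610 and the adjusted p 0.151 by limma. A count of 3 fragments was the least treated as measurable. By the length of the longest coding transcript it corresponds to 0.380 to 0.606 FPKM of this gene. By the steps in its values, about 3 fragments were 0.888 FPKM in Day 1 replicate 1, where the length gives 0.473 FPKM. The limit is thus uncertain and may be higher.

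The ferritin genes were by far the most abundant of the 10 on every day, by level per length. *Fth1* encodes the heavy subunit, which oxidises iron on its way into the shell, and lies on the plus strand at chr19:9980598-9985098. Its level was 437 and 455 FPKM at Day 0, 402 and 429 at Day 1, 446 and 588 at Day 2 and 595 and 1055 at Day 3. Both libraries of Day 3 were above all earlier ones, and replicate 2 was the higher on 4 of 4 days, by a ratio of 1.77 on Day 3. The mean went from 446 ± 13.0 (SD, n = 2) to 825 ± 325 FPKM (SD, n = 2).

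*Fth1* rose by 0.83 ± 0.26 (SE, 95% interval 0.24 to 1.41) on the log2 scale from Day 0 to Day 3, with an adjusted p of 0.0341 by limma, or by 1.14 relative to the median of all genes. Within replicate 1 the ratio was 1.36 and within replicate 2 it was 2.32. The call was lost without Day 0 replicate 1, without Day 0 replicate 2 and without Day 3 replicate 2, where the log2 fold change was 0.41. It was also lost in a fit of the 2 days alone (adjusted p = 0.0807), with no filter (0.0610) and with eBayes without a trend (0.0690 by limma). With a term for replicate number in the fit the call stood (adjusted p = 0.0101 by limma). The step from Day 2 to Day 3, 0.63 ± 0.26 (SE), had an unadjusted p of 0.0386 and an adjusted p of 0.313 by limma. Day 3 replicate 2, the library with the highest *Fth1*, also had the highest astrocyte sum, 918 FPKM, and the highest OL sum, 17210 FPKM. The part of either in it was not tested.

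*Ftl1* encodes the light subunit, which takes part in mineral formation inside the shell, and lies on the minus strand at chr7:45457944-45459884. Its level was 625 and 645 FPKM at Day 0, 738 and 738 at Day 1, 765 and 956 at Day 2 and 987 and 1037 at Day 3. No neighbouring days overlapped. The replicates of Day 0, Day 1 and Day 3 lay close together, with a ratio of replicate 2 to replicate 1 between 1.00 and 1.05, and those of Day 2 were further apart at 1.25.

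*Ftl1* rose by 0.67 ± 0.15 (SE, 95% interval 0.33 to 1.01) on the log2 scale from Day 0 to Day 3, with an adjusted p of 0.00874 by limma, or by 0.98 relative to the median of all genes. The rise was 1.58-fold within replicate 1 and 1.61-fold within replicate 2. Its call was lost without Day 0 replicate 1 and without Day 0 replicate 2, at nearly the same change (0.65 and 0.69). With a term for replicate number in the fit the call stood (adjusted p = 0.0066 by limma). Its steps from day to day, 0.22, 0.21 and 0.24, were each under the threshold, with adjusted p of 0.410, 0.438 and 0.514 by limma.

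By mean level *Ftl1* stood at rank 78, 38, 23 and 17 of all entries over Day 0 to Day 3, and *Fth1* at rank 119, 111, 56 and 25. Of the 75-base windows of *Ftl1*, 51.3% also occur, on either strand, in another annotated gene. The most frequent were Ftl1-ps1, Gm10252 and Gm15590, none of which has an entry in the table. Gm10252 lies on the other strand. The level of *Ftl1* is thus less certain than that of *Fth1*, where 0.882% are shared.

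The 2 subunits were compared within each library. The ratio of *Fth1* to *Ftl1* FPKM was 0.699 and 0.705 at Day 0, 0.544 and 0.582 at Day 1, 0.583 and 0.615 at Day 2 and 0.603 and 1.02 at Day 3. It was lower in all 4 libraries of Day 1 and Day 2 than in those of Day 0, and the replicates of Day 3 were far apart. The log2 ratio had no trend over the days that the test could call (slope 0.056 per day, p = 0.622 in the two-sided exact permutation test, 0.674 adjusted over the 4 ratios), and the slope was -0.070 without Day 3 replicate 2.

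**Figure D4:**
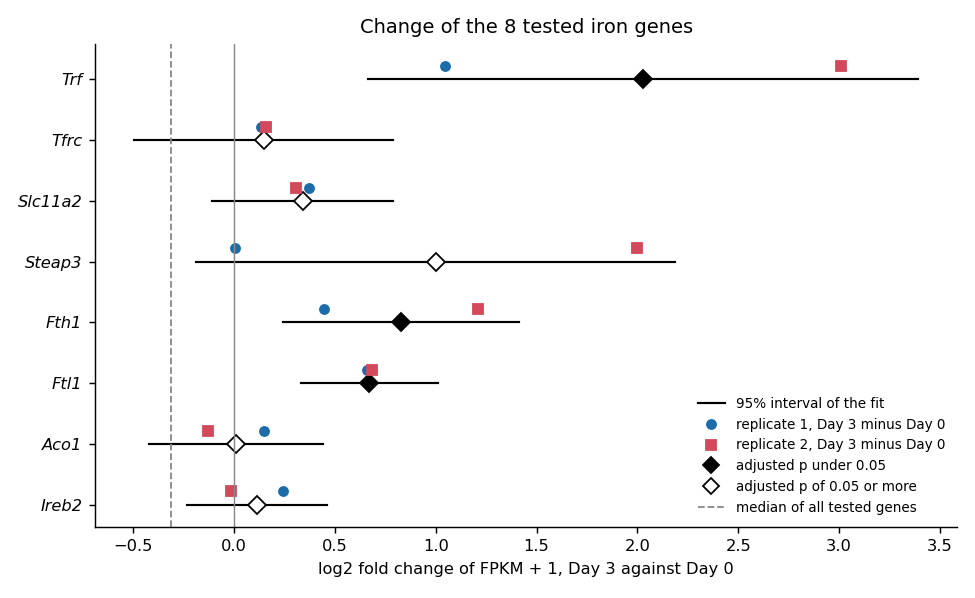
Log2 fold change of FPKM + 1 from Day 0 to Day 3 (x axis) of the 8 tested iron genes (y axis), with diamonds for the fit over all libraries, filled where the adjusted p was under 0.05, lines for its 95% interval, and circles and squares for the change within replicate 1 and replicate 2. The dashed line is the median of all tested genes, -0.31, and the intervals of *Trf*, *Fth1* and *Ftl1* lie above 0.

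*Slc40a1* encodes ferroportin, the exporter that carries iron out of the cell. It is on the minus strand at chr1:45908068-45926523. Its level was 0.193 and 0 FPKM on Day 0, 0 in both libraries of Day 1, 0.243 and 0.222 at Day 2 and 0.543 and 0.309 at Day 3. That is about 6 fragments over all 8 libraries and at most 2 in any of them, so every value lay under the level that 3 fragments would give (0.582 to 0.927 FPKM), and the gene was not tested. The days could not be told apart at this depth.

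*Heph* encodes hephaestin, the ferroxidase that works beside ferroportin. Its locus is on the plus strand at chrX:96455359-96574485 and was listed at 0 in all 8 libraries. At this depth, and by the length of its longest coding transcript, 3 fragments correspond to 0.413 to 0.659 FPKM of *Heph*. This estimate of the upper limit for its level in a library covers counting error only. As for *Steap3*, the limit may be higher than the length gives.

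*Aco1* encodes iron regulatory protein 1, which is the cytosolic aconitase when it holds an iron-sulfur cluster and binds RNA when it does not. Its locus is on the plus strand at chr4:40143081-40198338. Its level was 32.9 and 36.0 FPKM at Day 0, 37.0 and 52.9 at Day 1, 36.1 and 40.3 at Day 2 and 36.5 and 32.9 at Day 3. Day 1 replicate 2 was the highest library and the other 7 lay between 32.9 and 40.3 FPKM. Compared with Day 0, its log2 fold change at Day 3 was 0.01 ± 0.19 (SE, 95% interval -0.42 to 0.44) with an adjusted p of 0.978 by limma.

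*Ireb2* encodes iron regulatory protein 2, whose amount is known to be set by protein breakdown. Its locus is on the plus strand at chr9:54863789-54912530. Its level was 33.3 and 33.8 FPKM at Day 0, 34.8 and 38.8 at Day 1, 33.6 and 30.1 at Day 2 and 39.6 and 33.4 at Day 3, a narrow range in which the first and last day overlapped. Its change by Day 3 was 0.11 ± 0.15 (SE, 95% interval -0.23 to 0.46) with an adjusted p of 0.585 by limma. The ratio of *Aco1* to *Ireb2* FPKM lay between 0.922 and 1.36 in the 8 libraries, with a slope of -0.032 per day on the log2 scale (p = 0.629 in the two-sided exact permutation test, 0.674 adjusted).

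The order of the 10 genes by mean level changed at 1 place in particular. On Day 0 it ran *Ftl1* (635 FPKM), *Fth1* (446), *Aco1* (34.5), *Ireb2* (33.6), *Trf* (26.3), *Tfrc* (24.2), *Slc11a2* (14.7), *Steap3* (0.976), *Slc40a1* (0.0965) and *Heph* (0), and the replicates of *Aco1* and *Ireb2*, of *Trf* and *Tfrc*, and of *Slc40a1* and *Heph* overlapped. On Day 2 and Day 3 *Trf* stood at position 3, with both libraries above those of *Aco1*, *Ireb2* and *Tfrc*. On Day 3 the replicates of *Ftl1* (1012 FPKM) and *Fth1* (825 FPKM) overlapped, as did those of *Ireb2* (36.5 FPKM) and *Aco1* (34.7 FPKM).

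Between neighbouring days 0 of the 8 tested genes were called. From Day 0 to Day 1, 12.6% of all tested genes were called in either direction, and 0 of the 8 had an unadjusted p under 0.05. From Day 1 to Day 2 it was 3.89% of all genes (475, or 803 with the replicate block), with *Trf* alone under an unadjusted p of 0.05 without the block and both *Trf* and *Tfrc* with it, by limma. From Day 2 to Day 3 it was 0.295% (36 genes, or 163 with the replicate block), with *Steap3* and *Fth1* under an unadjusted p of 0.05 by limma.

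A wider list of 60 iron genes, without the 10, was read from the same fit. All had an entry, 45 were tested, and from Day 0 to Day 3 5 were higher and 6 lower, where 12% and 26.3% of all tested genes were. The list had a median log2 fold change of -0.23 beside -0.31 over all tested genes. With median ratio scaling the split was 7 higher and 4 lower, and with quantile normalization 9 and 3. Without Day 0 replicate 2 it was 3 and 2, and without Day 0 replicate 1 it was 4 and 3. The lists are given in turn, beginning with haem, the iron-holding ring of cytochromes and other enzymes.

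Of the 8 tested genes of haem synthesis, 2 rose and 0 fell, beside 12% and 26.3% of all tested genes. *Cpox*, which encodes coproporphyrinogen oxidase, was at 9.42 and 12.8 FPKM at Day 0, 16.1 and 25.3 at Day 1, 69.9 and 113 at Day 2 and 95.9 and 110 at Day 3. The days did not overlap up to Day 2, and by Day 3 its log2 fold change reached 3.11 ± 0.28 (SE, adjusted p = 0.000155 by limma). *Fech*, the ferrochelatase that places iron into the ring, stayed at 13.9 to 22.8 FPKM up to Day 2 and was at 36.7 and 52.5 FPKM on Day 3, a log2 fold change of 1.37 ± 0.24 (SE, adjusted p = 0.00300 by limma). *Alad*, an early enzyme of the path, was at 12.1 and 18.1 FPKM on Day 0 and 31.2 and 30.9 FPKM on Day 3, with an adjusted p of 0.0828 by limma, and was called with the replicate block (adjusted p = 0.0180). The calls of *Cpox* and *Fech* held in all 17 alternatives. *Alas1*, the rate-limiting enzyme outside red blood cells, was at 11.6 and 11.2 FPKM on Day 0 and 7.80 and 10.0 FPKM on Day 3, with an adjusted p of 0.367 by limma.

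Of the 7 tested genes of haem breakdown and transport, 1 rose and 1 fell, beside 12% and 26.3% of all tested genes. *Slc48a1*, a transporter of haem out of endosomes and lysosomes, rose from 18.6 and 20.6 FPKM on Day 0 to 43.2 and 63.6 FPKM on Day 3 (log2 fold change 1.38 ± 0.27, SE, adjusted p = 0.00471 by limma). *Blvrb*, a biliverdin reductase, was at 7.54 and 2.83 FPKM on Day 0 and listed at 0 in both libraries of Day 3 (adjusted p = 0.00418 by limma), about 10 and 3 fragments against 0 in the libraries of least depth, so that its call rests on few fragments. *Hmox1*, the inducible haem oxygenase, was at 14.5 and 20.7 FPKM on Day 0 and 10.5 and 18.5 on Day 3, and its change was not called (adjusted p = 0.463).

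Among genes of iron storage, release and chaperones, 1 of 5 tested rose and 2 fell, beside the same 12% and 26.3%. *Fbxl5*, the ubiquitin ligase subunit that marks iron regulatory protein 2 for breakdown, rose from 13.6 and 13.9 to 26.2 and 19.0 FPKM (log2 fold change 0.66 ± 0.20, SE, adjusted p = 0.0296 by limma). *Pcbp2*, an RNA-binding protein that also delivers iron to ferritin, fell from 245 and 246 to 148 and 136 FPKM (-0.79 ± 0.13, SE, adjusted p = 0.00253 by limma). *Ncoa4*, the receptor that takes ferritin to the lysosome, fell from 52.9 and 58.8 to 44.7 and 38.6 FPKM (-0.42 ± 0.14, SE, adjusted p = 0.0497 by limma), and 13 of 17 alternatives ended that call. That of *Fbxl5* ended without Day 0 replicate 1 (adjusted p = 0.118), Day 0 replicate 2 (0.106) or Day 3 replicate 1 (0.143) and in a fit of the 2 days alone (0.0669), while that of *Pcbp2* held in all 17.

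Of the other uptake genes 3 of 11 were tested, of which 1 rose and 1 fell, beside 12% and 26.3% of all tested genes. *Slc22a17*, a receptor for the iron-siderophore carrier lipocalin 2, rose from 108 and 95.9 to 198 and 147 FPKM (log2 fold change 0.73 ± 0.17, SE, adjusted p = 0.0111 by limma), and *Slc39a14*, a zinc and iron transporter of the cell surface, fell from 18.8 and 23.0 to 10.6 and 3.63 FPKM (-1.57 ± 0.39, SE, adjusted p = 0.0138 by limma). The call of *Slc22a17* ended without Day 0 replicate 2 (adjusted p = 0.0839) or Day 3 replicate 1 (0.0536), and that of *Slc39a14* without Day 0 replicate 1 (0.0564) or replicate 2 (0.0935) and in a fit of the 2 days alone (0.0565). *Tfr2*, the second transferrin receptor, was listed at 0 in every library. Of the export genes and the hormone system, *Hamp*, which encodes hepcidin, was also listed at 0 throughout. Beside 12% of all tested genes called higher and 26.3% lower, 0 of the 2 tested export and hormone genes were called. Of these *Cp*, which encodes the ferroxidase ceruloplasmin, was at 4.29 FPKM in Day 3 replicate 2 and between 0.180 and 1.07 FPKM in the other libraries.

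Of 16 genes of mitochondrial iron import and iron-sulfur cluster assembly, all tested, 0 rose, where 12% of all tested genes did, and 1 fell, where 26.3% did. This was *Nubp1*, a scaffold of the cytosolic assembly path, which fell from 13.8 and 15.5 to 8.19 and 6.87 FPKM (log2 fold change -0.88 ± 0.21, SE, adjusted p = 0.0113 by limma). That call ended with median ratio scaling (adjusted p = 0.0513), with quantile normalization (0.0613) and without Day 0 replicate 2 (0.0813) or Day 3 replicate 2 (0.0573). The median of these 16 was -0.38, beside -0.31 over all tested genes. Of 4 other mRNAs listed for a known iron-responsive element, 0 rose and 1 fell, beside 12% and 26.3% of all tested genes. The loop rule used above found no match in these 4. *Cdc14a* fell from 9.16 and 9.27 to 3.27 and 1.86 FPKM (-1.55 ± 0.42, SE, adjusted p = 0.0214 by limma). That call ended with quantile normalization (adjusted p = 0.0526 by limma) and without Day 0 replicate 1, Day 0 replicate 2 or Day 3 replicate 2.

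**Figure D5:**
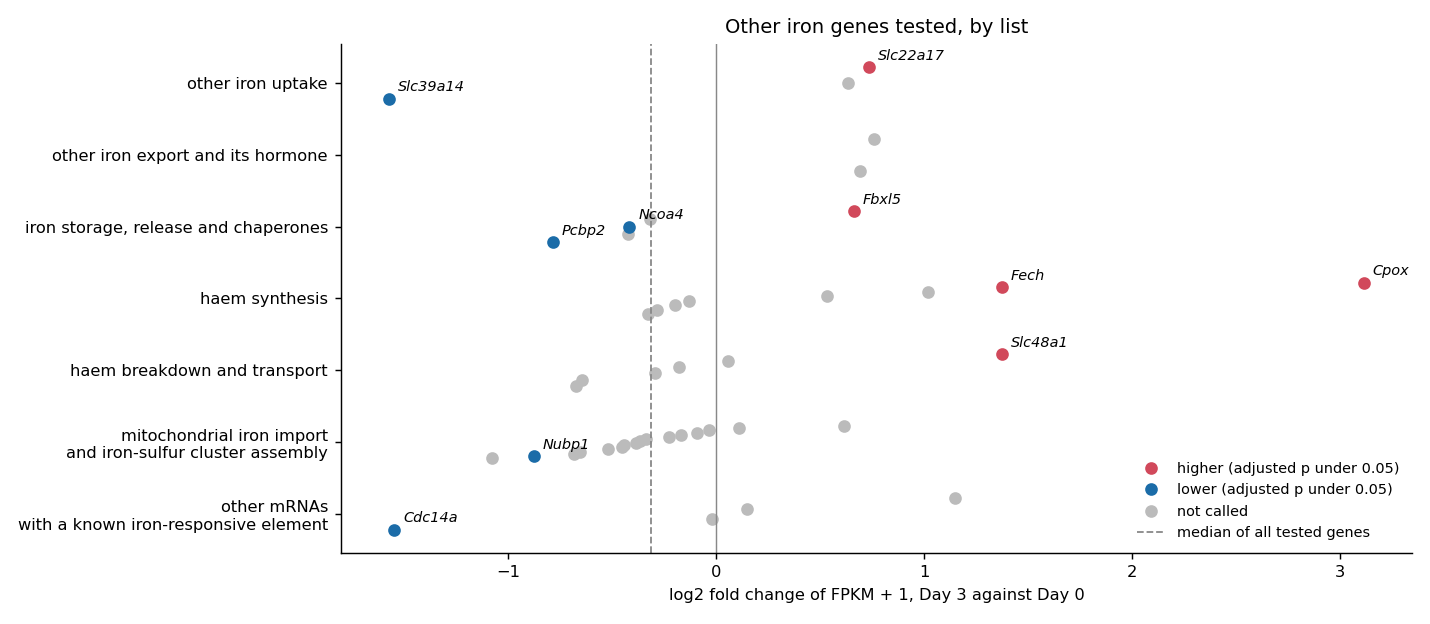
Log2 fold change of FPKM + 1 from Day 0 to Day 3 (x axis) of the other iron genes tested, by list (y axis), in red where called higher, in blue where called lower and in grey where not called. *Blvrb*, listed at 0 on Day 3, is left out, the dashed line is the median of all tested genes, -0.31, and *Cpox* at 3.11 lies furthest from it.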

How the data were processed

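The mRNA of mouse OPC cultures was sequenced in 8 libraries, 2 for each of 4 days, and the report used all of them, grouped by the day in the labels. Per the methods, the libraries were stranded, sequenced on a MiSeq system with reads of 75 nt from both ends, and processed with OmicSoft ArrayStudio. The authors deposited FPKM per gene and library, with replicates not pooled. The build in the submitters' processing notes was mm10. Neither the aligner, the gene model nor the use of strand in counting is given in the sources used here, and no normalization between libraries beyond that of FPKM is named. The methods name DESeq2, which needs counts and was not used here.

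The 10 genes were matched by the symbol before the chromosome in each entry. The 12208 genes that reached an FPKM of 1 in 2 or more libraries were tested on log2(FPKM + 1) with limma 3.58.1 in R 4.3.3, with lmFit, eBayes with a trend and a day factor of 4 levels. The pseudocount of 1 makes fold changes of low genes too small. P-values were adjusted by the Benjamini-Hochberg method over all genes tested and called under 0.05. The fit was tested on simulated data. Ratios of 2 genes within a library were tested with an exact permutation test that ran through every arrangement of the libraries over the days. Python 3.11.15 served for the rest, with pandas 2.3.3, numpy 2.4.6, matplotlib 3.10.9 and scipy 1.17.1.

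Depth was inferred from the smallest steps in low FPKM values. Of 2392 low genes, 86.2% had values that were whole multiples of a step within 0.01, against 4.43% when values were drawn at random, and 313 genes with a single transcript gave the depth. Fragment numbers given for single genes are estimates from these steps. Limits at 3 fragments are estimates from annotated transcript lengths and cover counting error only. With 2 libraries per day the spread is poorly known. The limma p-values set a change against the spread within days over all 8 libraries, moderated over genes by eBayes.

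Coordinates, overlaps and loops came from GENCODE M21. Symbols of 4 list genes were matched through older names in the RefSeq gene table, and Hbb-bt was not found.

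The replicate numbers of the labels did not enter the main tests. The differences of replicate 2 from replicate 1 correlated between days over genes, with r of 0.164 to 0.285 for all 6 pairs of days. A term for replicate number, the replicate block, was therefore tried. The replicate block was an alternative, beside leaving out each library in turn, eBayes without a trend, fitting only the 2 days compared, quantile normalization, median ratio scaling, rescaling to equal sums, a higher filter (an FPKM of 10 in any library), no filter and a pseudocount of 0.1. All 10 genes are named, and of the wider lists up to 3 called genes with the largest change in each. *Alad*, *Alas1*, *Hmox1*, *Tfr2*, *Hamp* and *Cp* were named after their values were seen. Some genes of these lists are not reported here and were left out of their counts. The genes and the lists were chosen with earlier results of these data known.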

Additional observations from a re-analysis of the deposited data

How the results depend on the processing

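From Day 0 to Day 3, 1 of the iron genes was called (*Ftl1*) with no filter and with eBayes without a trend, 0 to 3 were called when 1 library was left out, and 2769 to 4548 genes of the whole table. *Trf* was no longer called in 5 of 17 alternatives (log2 fold change 1.25 to 2.80), *Fth1* in 6 (0.41 to 1.26) and *Ftl1* in 2 (0.63 to 1.09), each with the same sign in all 17. *Aco1* changed sign without Day 0 replicate 1 (-0.056) and without Day 3 replicate 1 (-0.065), and *Ireb2* without Day 3 replicate 1 (-0.0062). The change of *Ireb2* was 0.23 without Day 3 replicate 2 and highest, 0.42, with median ratio scaling (adjusted p = 0.0537 by limma). *Steap3* could not be tested with the filter of FPKM of at least 10.

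From Day 0 to Day 1, *Ftl1* was called with quantile normalization (1 gene, 0.55), and 583 to 1585 genes of the whole table were called when 1 library was left out. Changes that were not called turned sign for *Trf* without Day 0 replicate 2 (-0.11) and without Day 1 replicate 2 (-0.37, 0.56 at most). They did so for *Tfrc* without Day 1 replicate 1 (0.24, and -0.71 at the lowest) and *Fth1* with quantile normalization (0.10). *Steap3* turned sign without Day 0 replicate 1 (0.085) and without Day 1 replicate 2 (0.025). Its change was -0.95 without Day 0 replicate 2 and lowest, -1.41, with a pseudocount of 0.1. *Slc11a2* turned sign with quantile normalization (0.082), median ratio scaling (0.039) and rescaling to the same sum (0.042). It also did so without Day 0 replicate 1 (0.083) and without Day 1 replicate 2 (0.070, and -0.16 at the lowest). From Day 1 to Day 2, *Aco1* turned to 0.044 without Day 1 replicate 2 (-0.46 at the lowest), and from Day 2 to Day 3 *Trf* turned to -0.23 without Day 2 replicate 1 and to -0.27 without Day 3 replicate 2 (1.28 at most).

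From Day 1 to Day 2, 475 genes of the whole table were called, but 247 with no filter, 803 with the replicate block, 0 with only the days compared, 121 with eBayes without a trend and 11 to 445 with 1 library left out. From Day 2 to Day 3, 36 were called, but 8 with a pseudocount of 0.1, 0 with no filter, with only the days compared and with eBayes without a trend, 163 with the replicate block and 0 to 223 with 1 library left out, the highest without Day 3 replicate 1. The 0 calls among the iron genes between Day 1 and Day 2 and between Day 2 and Day 3 held in all 17 alternatives.

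The slope of *Trf* over *Tfrc* (0.66 per day, adjusted p = 0.0508 in the exact permutation test) passed the threshold with the replicate block (0.66, adjusted p = 0.0139), and was 0.49 to 0.81 with 1 library left out (adjusted p 0.00635 to 0.19). That of *Fth1* over *Ftl1* was -0.070 without Day 3 replicate 2 and 0.10 at most, and that of *Aco1* over *Ireb2* -0.075 to 0.011, the last without Day 3 replicate 1. That of *Slc40a1* over *Tfrc* (0.049, p = 0.674 in the exact permutation test) was -0.045 with median ratio scaling, -0.021 without Day 3 replicate 1 and up to 0.097 without another library. With a pseudocount of 0.1 it was 0.55 (p = 0.0659 in the exact permutation test, 0.132 adjusted), so it depends on the pseudocount. The ratio rests on at most 2 fragments of *Slc40a1* a library. The replicate block changed no other call among the 10 genes and their ratios. The cause of these changes was not tested. The depth and 2 libraries per day limit all of these results.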
